A study of Mus musculus with 2 samples.

Results

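Genes with 3 or more widely spaced start sites in open chromatin were described in mouse cortex by DNase-seq, which maps chromatin accessible to cutting by DNase I. The genes were chosen by the deposited peaks themselves. Peaks of the shorter list of each library were merged, and regions holding a peak of both libraries were kept when they lay within 500 bp of an annotated start site of an autosomal protein-coding gene. A gene qualified when at least 3 such regions had midpoints over 5000 bp from one another. This selected 161 of 20807 autosomal protein-coding genes, or 0.774%. Of the 4149 genes whose annotated start sites could allow 3 sites at that spacing, the 161 genes were 3.88%. Both shares follow from the selection. Sites within a gene were taken from the strongest region down, which gave 522 sites, and no site counted for more than 1 of the genes.

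The tissue was the right cerebral cortex of adult female B6CASTF1/J mice, hybrids of C57BL/6J and CAST/EiJ, aged 18 to 20 months. The labels give 1 group of 2 biological replicates, with no treatment and no control, so nothing was tested between conditions. Both biosamples carry the same donor identifier and separate animals are not stated, so the spread between replicates may be partly technical. Values are the authors' deposited peak signal, for which no normalization is stated.

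An alternative promoter is a separate start site of the same gene, with its own regulatory sequence and often its own first exon. Its use can change the amino end of the protein, remove whole domains, or change only the leader of the transcript. Long neuronal genes such as the ankyrins and the cyclic AMP phosphodiesterases are textbook cases, in which internal promoters make shorter proteins from the same gene. DNase-seq reports whether the chromatin at a start site is accessible. It does not measure transcripts, and the cortex mixes neurons, glia and vessel cells, so sites open in different cell types cannot be told apart from sites open in the same cell.

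Stretches of 150 bases from open start sites give the sequence behind the values. They are shown for Tpm1, Smarca2 and Pde4d, whose strongest and weakest sites were far apart in signal. These genes were picked after their values were seen, and the windows avoid annotated exons. For that reason their centres lie 75 or 76 bp from the annotated start at the strongest sites but 365 bp (Tpm1), 324 bp (Smarca2) and 491 bp (Pde4d) at the weakest, so the windows of a gene are not at like distances. Each is the GRCm38.p6 (mm10) reference, 5′ to 3′ on the strand of the gene, with CG dinucleotides in capitals. The reference is of the C57BL/6J strain, so CAST/EiJ alleles are not represented.
Tpm1 site 2, strongest, chr9:67043963-67044112, minus strand: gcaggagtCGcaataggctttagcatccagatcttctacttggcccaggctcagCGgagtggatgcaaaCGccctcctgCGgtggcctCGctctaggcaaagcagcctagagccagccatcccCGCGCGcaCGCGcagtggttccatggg
Tpm1 site 3, weakest, chr9:67033115-67033264, minus strand: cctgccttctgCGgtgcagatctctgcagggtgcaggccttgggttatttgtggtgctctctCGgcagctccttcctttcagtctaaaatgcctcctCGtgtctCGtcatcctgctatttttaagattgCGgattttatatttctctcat
Smarca2 site 1, strongest, chr19:26604900-26605049, plus strand: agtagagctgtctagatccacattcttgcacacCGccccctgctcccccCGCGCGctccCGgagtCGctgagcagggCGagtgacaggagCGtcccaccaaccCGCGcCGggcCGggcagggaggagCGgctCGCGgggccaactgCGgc
Smarca2 site 2, weakest, chr19:26716364-26716513, plus strand: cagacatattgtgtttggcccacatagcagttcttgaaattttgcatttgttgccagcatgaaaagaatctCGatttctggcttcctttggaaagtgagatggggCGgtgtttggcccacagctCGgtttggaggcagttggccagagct
Pde4d site 6, strongest, chr13:109926694-109926843, plus strand: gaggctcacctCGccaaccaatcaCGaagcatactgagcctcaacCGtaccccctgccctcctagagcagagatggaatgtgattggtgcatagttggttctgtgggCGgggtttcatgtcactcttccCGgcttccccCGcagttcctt
Pde4d site 1, weakest, chr13:108449382-108449531, plus strand: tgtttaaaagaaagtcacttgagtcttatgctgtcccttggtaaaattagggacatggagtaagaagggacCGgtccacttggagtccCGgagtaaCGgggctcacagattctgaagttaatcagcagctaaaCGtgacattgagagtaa

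The Tpm1 windows held 10 CG dinucleotides at the strongest site and 5 at the weakest, and the Smarca2 windows held 16 and 3. The Pde4d windows held 6 and 4. The strongest Pde4d window has an exact match to the SP motif GGGCGGG and to the NFY motif CCAAT. The weakest Tpm1 window has a match to TATAAA. A match is a description of the letters and not a bound site.

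The largest mean lead of a strongest site was in Tpm1, which encodes an actin-binding tropomyosin, although Mrtfa and Hip1 had larger leads in replicate 1 alone. Its 3 sites had signals of 0.870, 5.95 and 0.626 in replicate 1, from the 5′ end on, and 0.954, 8.68 and 1.07 in replicate 2. Site 2 (chr9:67043841-67044140) was thus the strongest in both replicates. It stood 7.89-fold above site 1, which came second by the mean (6.85-fold in replicate 1 and 9.09-fold in replicate 2). In replicate 2 alone site 3 came second, so the lead over the next site was smaller there. Site 2 lies 5.32 kb into the gene from site 1. Coding transcripts annotated at site 1 encode a protein of up to 326 residues, and those at site 2 one of up to 251. No coding transcript starts at site 3.

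Pde4d, which encodes a phosphodiesterase that degrades cyclic AMP, had 6 open start sites spread over 1477 kb. Its most 3′ site (chr13:109926681-109926900) had a signal of 3.08 in replicate 1 and 3.12 in replicate 2. The other 5 ranged from 0.586 to 0.969 in replicate 1 and from 0.588 to 1.19 in replicate 2. The last site therefore stood 2.88-fold above the second (3.18-fold and 2.61-fold by replicate), with no overlap between it and any other site. It serves Pde4d-203, whose annotated protein of 517 residues is shorter than the 803 residues of Pde4d-208 at site 2. Pde4b, its close relative, had no such dominant site. Its 3 sites had signals of 0.577, 0.731 and 1.06 in replicate 1 and 1.09, 1.35 and 1.31 in replicate 2, so the strongest differed between replicates.

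In other genes the most 5′ site stood alone. Hip1, an adaptor of clathrin-mediated endocytosis, had signals of 7.63, 0.934 and 0.750 in replicate 1 and 7.94, 1.37 and 0.580 in replicate 2. Mrtfa, a coactivator of serum response factor, had 6.71, 0.716 and 0.929 in replicate 1 and 7.33, 1.19 and 0.722 in replicate 2. The most 5′ site exceeded site 2, the second by the mean, 6.87-fold in Hip1 (8.17 and 5.78 by replicate) and 7.61-fold in Mrtfa (9.38 and 6.18). In replicate 1 site 2 of Mrtfa was below site 3, so the lead over the next site was smaller there. Smarca2, an ATPase of the BAF chromatin remodelling complex, had 6.03, 0.562 and 1.11 in replicate 1 and 6.91, 0.874 and 1.28 in replicate 2. Its first site was 5.41-fold above its second, nearly alike in the replicates (5.44 and 5.38). Site 3 of Smarca2 is weak but serves 17 coding transcripts, among them Smarca2-220 with a protein of 278 residues against 1601 for Smarca2-209 at site 1. Hivep3, a large zinc finger transcription factor, and Tmcc1, a membrane protein of the endoplasmic reticulum, had the same form, with first sites 5.66-fold and 5.27-fold above the second.

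The site with the highest mean signal was the first of Acin1, a nuclear protein linked to splicing, at 7.27 and 11.1, with the other sites between 1.60 and 2.02. Camta1, a calmodulin-binding transcription activator, had 6.84 and 6.73 at its first site. Its 3 further sites, 722 to 753 kb downstream, reached 1.51 to 2.50 in replicate 1 and 2.66 to 3.82 in replicate 2. Several strong first sites also lie within 500 bp of a start site of another gene, and the signal cannot be assigned to one of them. Those of Acin1 and Mrtfa lie beside 1700123O20Rik and 4930483J18Rik. The strongest or the second site of Chd9, Cacnb2, Nav1, Nrg1 and Magi2, named below, also lies that near a start of another gene. The first site of Dlg2, the postsynaptic scaffold PSD-93, lies beside Tmem126b and had a signal of 6.32 and 6.89. No coding transcript of Dlg2 starts there. Its 5 other sites ranged from 0.437 to 1.61 and from 0.553 to 1.56.

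**Figure D1:**
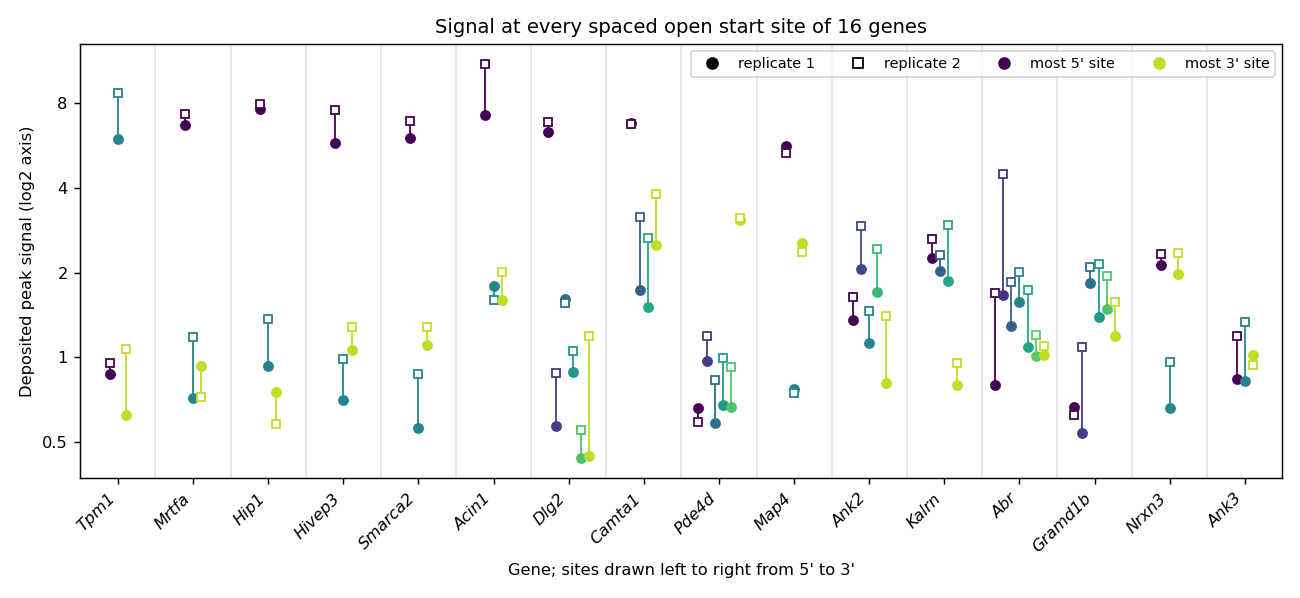
Deposited peak signal (log2 axis) at each open start site of 16 of the named genes, with sites of a gene drawn from 5′ to 3′, circles for replicate 1 and open squares for replicate 2. Tpm1 and Pde4d stand out by an inner and a last site, Hip1, Mrtfa and Smarca2 by the first site, and in Kalrn, Nrxn3 and Ank3 the leading site differs between replicates.

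Nrxn3 encodes a presynaptic adhesion protein. Its first and last of 3 sites could not be ordered, at 2.13 and 1.98 in replicate 1 and 2.33 and 2.35 in replicate 2, with the middle site at 0.661 and 0.963. Site 3 of Nrxn3 serves a protein of 567 residues and site 2 one of 1100. No coding transcript of Nrxn3 starts within 500 bp of its first site.

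Kalrn, an exchange factor that shapes dendritic spines, had 3 sites of similar strength and a weaker last one. Its signals were 2.26, 2.03, 1.87 and 0.800 in replicate 1 and 2.64, 2.31, 2.96 and 0.954 in replicate 2, so site 1 led in the first library and site 3 in the second. Ank2, an ankyrin that links membrane proteins to the spectrin skeleton, had 5 sites with signals of 1.36, 2.06, 1.13, 1.71 and 0.810 in replicate 1 and 1.64, 2.92, 1.46, 2.43 and 1.40 in replicate 2. Site 2 led site 4 by 1.20-fold and 1.21-fold, and the full order was the same in both replicates. In Ank3, the ankyrin of the axon initial segment, 3 sites ranged from 0.825 to 1.02 and from 0.936 to 1.34, with the smallest distance from strongest to weakest of all 161 genes (1.07-fold). In Gnas, which encodes the stimulatory G protein alpha subunit, the signals were 0.507, 0.934 and 1.47 in replicate 1 and 0.678, 2.03 and 1.73 in replicate 2. The second and the last site changed places between replicates.

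The gene with the most sites was Abr, a regulator of small GTPases, with 7 over 175 kb. Its site 2 had a signal of 1.66 in replicate 1 and 4.48 in replicate 2, and the other 6 ranged from 0.795 to 1.57 and from 1.10 to 2.02. Site 2 led by 1.06-fold in replicate 1 and 2.22-fold in replicate 2, so its lead rests on the second library. Gramd1b, a sterol transfer protein, had 6 sites, of which sites 3 to 6 had signals of 1.19 to 1.84 and 1.58 to 2.14. Its first 2 sites were lower, between 0.537 and 0.666 and between 0.624 and 1.09. Among all 161 genes, 132 allowed 3 sites at the required spacing, 23 allowed 4, 2 allowed 5, 3 allowed 6 and 1 allowed 7. The genes with 5 were Ank2 and Nedd4l, a ubiquitin ligase whose first site was 2.38-fold above its second.

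Over all 161 genes the strongest site was the most 5′ open site in 86, or 53.4% (exact 95% Clopper-Pearson interval over genes 45.4% to 61.3%). It was the most 3′ site in 40 genes (24.8%) and an inner site in 35 (21.7%). Ranked in each library alone, the first site led in 53.4% and 52.2%. Among the 996 genes with exactly 2 such sites, the first led in 68.2%, but with fewer sites to choose from. Without regions near a start site of another gene, 121 genes qualified and the first site led in 46.3%.

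The same site was the strongest in both replicates in 124 of 161 genes (77.0%), and the full order of sites was the same in 81. The strongest site exceeded the second by a median of 1.55-fold (quartiles 1.19 to 2.30), with 1.62-fold in replicate 1 and 1.58-fold in replicate 2 when each was ranked alone. In 97 genes (60.2%) the mean lead was larger than 1.42-fold, with the same site ahead of the second in both libraries. That value is 2 SD of the gap between 2 given sites, taken from the replicate differences over all 16289 shared promoter regions. The lead was ranked on the same values and favours the strongest site by choice, so the count is a description. Replicate log2 differences had an SD of 0.382 at the 522 sites, against 0.357 over all shared promoter regions. In 43 genes the lead over the site second by the mean was at least 2-fold in both libraries. Among them were Nfia, a transcription factor of glial development, Kcnip4, a potassium channel subunit, Prex1, a Rac exchange factor, and Srrm4, a neuronal splicing factor. Genes with exactly 2 sites had a median lead of 2.08-fold. From strongest to weakest site the median was 2.58-fold, and the largest was 13.4-fold in Dlg2.

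**Figure D2:**
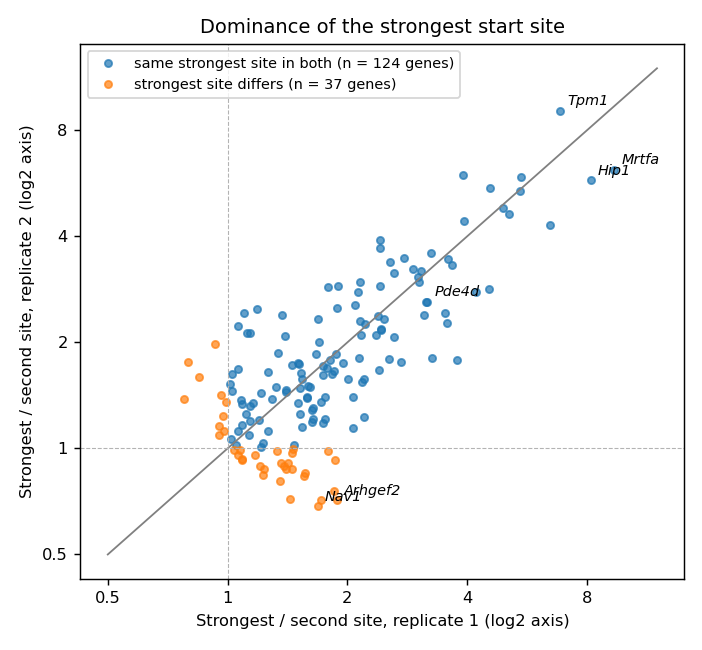
Signal of the strongest site divided by that of the second, ranked by the mean of both replicates, in replicate 1 (x) and replicate 2 (y), both on log2 axes, with 1 point per gene and the line of equality. The 124 genes with the same strongest site include Tpm1, Hip1 and Mrtfa at the upper right, and the 37 genes whose strongest site differs, such as Arhgef2 and Nav1, lie near or below a ratio of 1 in a replicate.

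Among genes of other roles, Map4, which binds microtubules, had signals of 5.63, 0.775 and 2.54 in replicate 1 and 5.35, 0.749 and 2.37 in replicate 2. Its order was the same in both, with proteins of 1125 residues at the first site and 933 at the last. Tnrc6b, a scaffold of microRNA silencing, had a pair of strong sites at its 5′ end (5.41 and 3.52 in replicate 1, 6.001 and 3.82 in replicate 2) and a pair of weak ones behind them, from 0.636 to 0.874 over both libraries. Rbfox2, a splicing regulator, had its strongest site inside the gene, at 3.58 and 2.78, against 2.06 and 2.36 at the first site and 1.45 and 1.33 at the last. Chd9, a chromatin remodeller, had 3.31 and 5.39 at its first site and 1.16 to 2.31 at the other 3.

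The 3 genes of the channel list differed among themselves. Kcnip4 had 1.84, 0.373 and 0.437 in replicate 1 and 2.18, 0.758 and 0.785 in replicate 2, with the first site clear of the others. Cacnb2, a calcium channel beta subunit, had its middle site highest, at 1.43 and 1.69, against 0.646 and 1.37 at the first and 0.517 and 0.695 at the last. Cacna2d2, an auxiliary subunit of the same channels, had its last site highest, by 1.19-fold in replicate 1 and 2.48-fold in replicate 2. The list does not hold every channel gene among the 161, such as Kcnab1, a potassium channel beta subunit, whose first site led by 1.34-fold in replicate 1 and 1.87-fold in replicate 2.

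In some genes the leading sites were close in signal. Dst, a giant linker of cytoskeletal filaments, had 1.28, 1.15 and 0.721 in replicate 1 and 1.83, 1.46 and 1.15 in replicate 2, and its first site lies beside Bend6. Adk, adenosine kinase, had 2.25, 1.85 and 2.33 in replicate 1 and 3.69, 2.56 and 3.66 in replicate 2, so its first and last sites could not be ordered. Its first site lies beside Ap3m1.

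Where the replicates differed, the values give no single strongest site. Arhgef2, a microtubule-associated exchange factor, had signals of 1.53, 1.24 and 2.88 in replicate 1 and 3.48, 1.43 and 2.48 in replicate 2. Nav1, a neuron navigator that binds microtubules, had 1.14, 0.701 and 0.676 in replicate 1 and 1.32, 1.18 and 1.93 in replicate 2. Nrg1, a ligand of ErbB receptors, had 1.35, 0.785 and 0.641 in replicate 1 and 1.38, 1.93 and 1.02 in replicate 2. In each of these 3 genes the site that led in 1 library came second or lower in the other. Over the 522 sites, 473 (90.6%) were higher in replicate 2, with a median log2 difference of -0.42 (replicate 1 minus replicate 2), against -0.51 over all shared promoter regions.

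The genes were long and richly annotated, which the spacing rule favours. Their median span was 178 kb (quartiles 103 to 387), against 65.3 kb for all genes whose annotation allows 3 sites and 17.6 kb for all autosomal protein-coding genes. They had a median of 11 annotated start sites, against 8 and 3. The first and last open site lay a median of 124 kb apart, from 13.2 kb in Ttyh1 to 1887 kb in Ptprd, a receptor tyrosine phosphatase of synapses. At the spacing limit, Ttyh1 and Tpm1 were just inside with smallest spacings of 5020 and 5320 bp, and Mast3 and Atp8b2 just outside with 4810 and 4720 bp. A further 99 genes would have qualified had a peak in either library been enough.

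**Figure D3:**
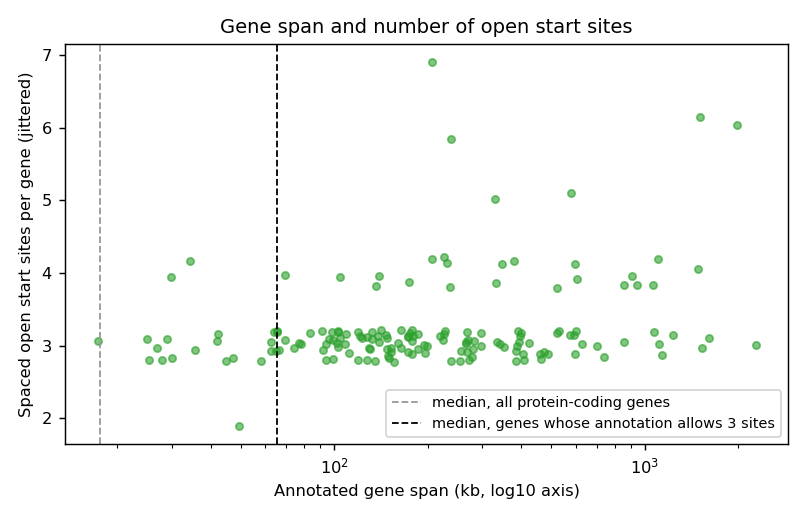
Annotated gene span (kb, log10 axis) against the number of spaced open start sites when picked from the strongest down (jittered vertically), 1 point per gene, with dashed lines at the median span of all autosomal protein-coding genes (17.6 kb) and of those whose annotation allows 3 sites (65.3 kb). Most genes lie to the right of both lines, and the single point at 2 is Pisd, which holds 3 spaced sites but only 2 when the strongest is taken first.

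The highest sites of the 161 genes had slightly lower median signals than those of genes with fewer open sites, with wide overlap. Their quartiles were 1.47 to 3.29 in replicate 1 and 2.14 to 4.52 in replicate 2. In genes with 1 site they were 1.26 to 3.48 and 1.95 to 4.70, so the lower quartile went the other way. The highest site of a gene had a median signal of 2.15 in replicate 1 and 2.92 in replicate 2, against 2.36 and 3.42 in genes with 2 sites and 2.23 and 3.27 in genes with 1. The weaker sites had medians of 1.01 and 1.34, above the 0.755 and 1.07 of regions distal to start sites.

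CpG content followed position more than strength. The CpG ratio, the observed CG dinucleotides over those expected from the C and G content of the 300 bp around a site, had a median of 0.804 at first sites, 0.403 at inner and 0.383 at last sites. First sites had high medians whether strongest (0.839, n = 86) or weaker (0.785, n = 75). Sites further 3′ had low medians whether strongest (0.449, n = 75) or weaker (0.384, n = 286). Strength also made a difference within first sites. A ratio of 0.6 or more was found at 88.4% of strongest and 70.7% of weaker first sites, and at 30.7% and 25.2% of further sites. Without regard to position the medians were 0.713 at strongest and 0.437 at weaker sites. All shared promoter regions had a median of 0.790 and distal regions 0.248. The strongest site of a gene exceeded the median of its weaker sites by a median of 0.205 (quartiles -0.0988 to 0.456). That median became 0.0840 without regions near a start of another gene. The strongest site had the highest ratio of its gene in 72 of 161 genes (44.7%), so exceptions were common. Hip1 was among them, with 0.329 at its dominant first site and 0.822 at its weak second site. In 85 genes exactly 1 site had a ratio of 0.6 or more, and in 48 of these it was the strongest site. In 63 genes 2 or more sites did so, and in 13 none did.

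**Figure D4:**
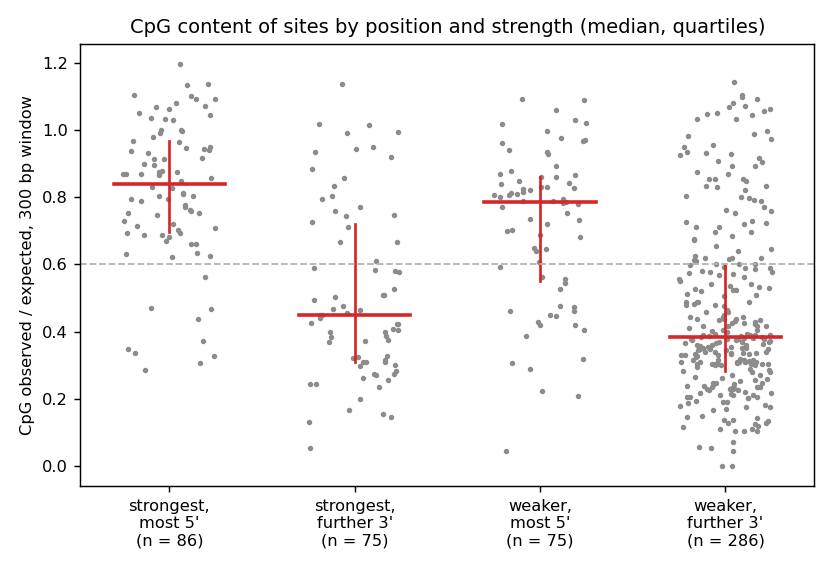
Observed over expected CpG in 300 bp at each of the 522 sites, split by strength within the gene and by position, with the median as a horizontal and the quartiles as a vertical red line and a dashed line at 0.6. Both groups of most 5′ sites have medians near 0.8, and both groups of sites further 3′ have medians under 0.45.

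Short motifs, searched as exact matches on both strands of 300 bp, differed by position, by strength or by both. The GC-rich SP motif GGGCGGG was in 46.6% of first and 20.2% of further sites, and in 42.2% of strongest, 22.2% of weaker, 44.4% of all shared promoter regions and 5.12% of distal regions. The AP-1 motif TGANTCA was in 3.73% of first sites and 15.2% of further ones, against 5.11% of all promoter regions and 19.2% of distal ones. TATAAA was in 1.86% of strongest and 7.76% of weaker sites, and in the same shares of first and further sites, with 4.29% and 15.0% in promoter and distal regions. CCAAT, the NFY motif, differed more by strength, with 41.6% of strongest and 23.5% of weaker sites against 34.2% of first and 26.9% of further sites, and 33.9% of promoter regions. On the SP and AP-1 motifs and TATAAA, sites further 3′ lay between all promoter and distal regions, and on CCAAT they were below both, distal regions having 31.0%.

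The other motifs searched were NRF1 (GCGCATGCG), CRE (TGACGTCA), ETS (CCGGAAG), YY1 (AANATGGC), the E-box (CANNTG), a CTCF core (AGGGGGC), EGR (GCGNGGGCG) and part of the RFX motif (GTTGCCA). The ETS motif was in 7.45% of strongest and 2.49% of weaker sites, and in 6.21% of first and 3.05% of further ones. The NRF1 motif was in 2.48% and 0.554% by strength and in 1.24% and 1.11% by position, from 6 sites in all. EGR matches can overlap SP matches, since the letters of either can continue into the other. The EGR motif was in 14.3% of strongest and 8.31% of weaker sites, against 12.3% of promoter and 0.908% of distal regions. By position it was in 17.4% of first and 6.93% of further sites. The CRE, read by the CREB family, was in 3.73% of strongest and 0.554% of weaker sites, which is 6 and 2 sites. It was in 4.35% of first and 0.277% of further sites, which is 7 and 1. The E-box was in 67.7% of strongest and 74.2% of weaker sites, against 63.2% of promoter and 86.1% of distal regions. By position it was in 64.0% of first and 75.9% of further sites.

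**Figure D5:**
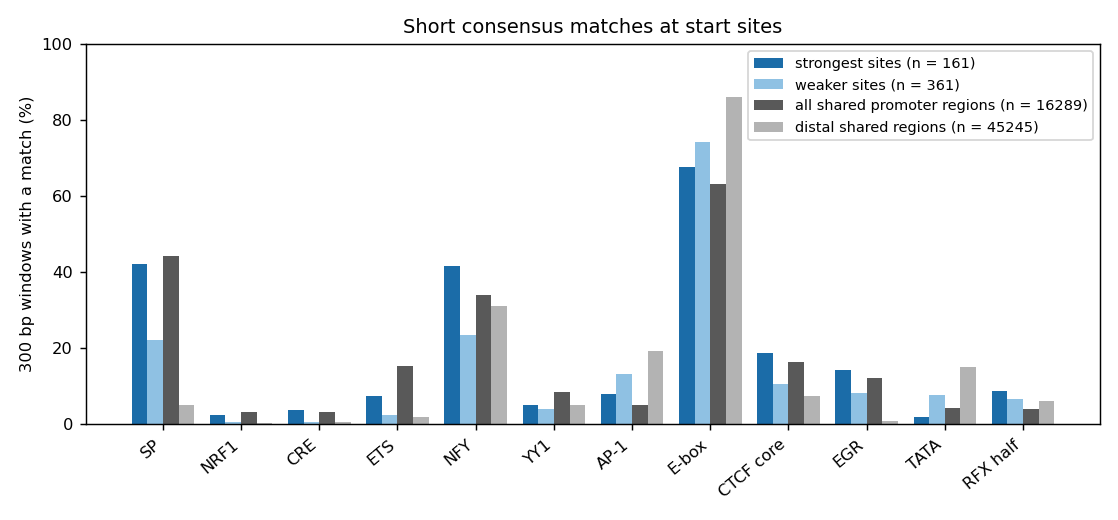
Percent of 300 bp windows with an exact match to each of 12 short motifs, for strongest and weaker sites of the 161 genes, all shared promoter regions and distal shared regions. The SP bars are high in strongest sites and in all promoters, and the AP-1, TATA and E-box bars are higher in weaker than in strongest sites.

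Footprints, short stretches protected from cutting within open chromatin, were denser at strongest sites. The deposited lists gave 1.56 and 1.71 footprints per 100 bp in replicates 1 and 2 at strongest sites, and 1.17 and 1.14 at weaker ones. All shared promoter regions had 1.28 and 1.33, and distal regions 1.11 and 1.06. Density also differed by position. In replicate 1 it was 1.67 at strongest first and 1.43 at strongest further sites, and 1.27 and 1.14 at weaker ones. Strongest sites also have the higher signal by choice (medians 2.12 and 2.84), and the part of signal in the footprint density was not tested.

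The annotation ties many of the sites to different proteins. A coding transcript starts within 500 bp of 131 of 161 strongest sites (81.4%) and 248 of 361 weaker sites (68.7%). In 130 genes coding transcripts start at 2 or more of the open sites, and in 106 of these at least a pair of sites shares no start codon. Of 84 genes with complete coding transcripts at the strongest and at another site, the strongest had the longest annotated protein, or tied, in 49 and the shortest in 29. Iqsec1, an Arf exchange factor, had its strongest site (3.89 and 5.13) at a transcript for 1099 residues, above its first site (1.82 and 2.84) with 1051. Dclk1, a doublecortin-like kinase, had its strongest site last (3.45 and 4.52), at a transcript for 452 residues, and its first site (1.94 and 2.67) serves 756. Another gene starts within 500 bp of 30 strongest sites (18.6%) and 25 weaker sites (6.93%).

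Gene lists were drawn up with earlier results of these data known and are given as counts. Of 35 genes chosen as textbook cases of alternative promoters, 12 were among the 161, among them Ank2, Ank3, Dst, Gnas, Kalrn, Myo18a, Nrg1, Nrxn3, Pde4b, Pde4d and Tpm1. Of 51 cytoskeletal linkers 12 were among them, including Map2, Map4, Clasp1 and Clasp2, which bind microtubules, and Palld, which binds actin. Of 47 synaptic scaffold and adhesion genes there were 10, among them Shank2, Magi2, Rims2, Erc2, Ptprd and Ptprs. The small GTPase regulators gave 8 of 51 gene identifiers, transcription factors 6 of 76, kinases and phosphodiesterases 4 of 63, RNA-binding proteins 4 of 39 and channel genes 3 of 50. The same counts can be set against the listed genes whose annotation allows 3 spaced sites. They are then 12 of 27 textbook cases, 12 of 42 cytoskeletal linkers, 10 of 38 synaptic genes, 8 of 40 GTPase regulators, 6 of 44 transcription factors, 4 of 46 kinases and phosphodiesterases, 4 of 26 RNA-binding proteins and 3 of 29 channel genes. Over all genes the shares were 0.774% of autosomal protein-coding genes and 3.88% of those whose annotation allows 3 sites. None of 63 cytosolic ribosomal protein genes was among them, and the annotation allowed 3 spaced sites in 0 of these. Within the textbook list the median lead of the strongest site was 1.18-fold, against 1.55-fold over all 161 genes, and the first site led in 5 of 12.

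The tissue label was checked by start sites of marker genes open in both libraries. They were open for 7 of 8 neuronal markers, 4 of 6 of astrocytes, 3 of 6 of oligodendrocytes, 1 of 6 of microglia and 1 of 5 of endothelium. Of genes for other tissues, 0 of 7 liver and 1 of 6 muscle markers (Mylpf) were open, and among neuronal markers Slc17a7 was not. The peak signals come in even steps (within 0.05 of a step), and if a step stands for 1 read after scaling to 1 M reads, the libraries held 201 M and 112 M reads. The median of the 522 sites then rests on 239 and 181.5 reads.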

How the data were processed

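DNase-seq of 2 libraries of 1 tissue was analysed from mm10 files, per the labels. Each library has 2 peak lists with a signal per peak that the authors deposited, and a footprint list with a p-value threshold of 0.01 in every row, as deposited. The aligner, peak caller and signal normalization were not given in the sources used here. Members, gene lists and motifs were chosen with earlier results of these data known.

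The shorter peak lists (86601 and 88482 peaks) were merged where peaks overlapped or touched, giving 105529 regions, 64789 with a peak of both libraries. Start sites came from GENCODE M21 and sequence from GRCm38.p6. The value of a region in a library was its highest peak signal, from a peak that can itself lie over 500 bp from the start site in wide regions, and its strength the mean log2 over the replicates. A lead by replicate is over the site ranked second by that mean strength, except where each library was ranked alone. CpG and motifs used 300 bp around region midpoints. Distal regions lay outside 500 bp of all start sites. Intervals are exact 95% binomial and cover counting over genes only. No test was made, because there is 1 group and peaks chose the genes. Python 3.11.15, numpy 2.4.6, scipy 1.17.1 and matplotlib 3.10.9 were used. The code of the selection was run on simulated peaks placed on start sites, with a larger lead than the median here and less noise. That run checks the code and does not show how well leads of the size seen here are recovered.

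Named genes were those with the most sites, the strongest sites, the largest and smallest leads, the largest opposed leads between replicates, all textbook cases, and up to 3 of every other list. A few of the 45 genes so named are not described singly. Other genes given by name, in lists or as examples, were chosen after their values were seen. Alternatives changed the peak list, peak strength, window, spacing, transcripts, neighbouring genes, overlap, order of picking and replicates. The lists of intervals with a false discovery rate were not used here. Some items are not reported here.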

Additional observations from a re-analysis of the deposited data

How the results depend on the processing

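The number of genes depended on the settings. It was 293 with the longer peak lists, 79 with the stronger 50% of peaks, 85 and 340 with windows of 100 and 2000 bp, and 73 with protein-coding transcripts only, against 161. It was 260 when a peak in either library was enough, an alternative chosen after seeing the data. Leaving out a library gave 202 to 213, since a shared peak is then not required. The share of genes led by the first site was 55.6% with the longer lists, 54.4% with the 2000 bp window, 50.7% with protein-coding transcripts, 46.3% without regions near another gene, 51.9% with the stricter overlap of peaks, 50.3% with sites picked from the 5′ end, and 53.99% to 54.95% with a library left out. The median lead over the second site was 1.74-fold, 1.42-fold, 1.46-fold and 1.63-fold with the longer lists, stronger peaks, 100 bp window and protein-coding transcripts, and 1.61 to 1.64 with a library left out. Strongest over weakest was 3.14, 1.99, 2.72 and 2.66 with the longer lists, stronger peaks, 2000 bp window and 2000 bp spacing, and 2.81 to 2.93 with a library left out. The CpG difference was 0.258 with the longer lists, 0.116 and 0.267 with windows of 100 and 2000 bp, 0.155 with 10000 bp spacing, 0.135 with protein-coding transcripts, 0.0840 without regions near another gene, 0.135 with sites picked from the 5′ end, and 0.173 to 0.260 with a library left out. The cause of these shifts was not tested. Of 45 named genes, 14 had a different strongest site in the 2 replicates. For 12 of them the lead changed sign when a library was left out. The lead is then the ratio in the remaining library, so this restates the difference between replicates and is no further check. For the others, Nrg1 and Stox2, regions redrawn from replicate 2 alone gave no value and a value from a different peak. With a library left out, the log2 lead ranged from -0.0105 to 0.0502 in Adk, -0.0258 to 0.163 in Ank3, -0.488 to 0.911 in Arhgef2, -0.474 to 0.521 in Ccdc13, -0.108 to 0.119 in Dixdc1, -0.233 to 0.650 in Gnas, -0.0242 to 0.411 in Gramd1b, -0.166 to 0.268 in Kalrn, -0.545 to 0.752 in Nav1, -0.0110 to 0.101 in Nrxn3, -0.0387 to 0.535 in Pde4b and -0.0657 to 0.0907 in Ttc7. The negative value came without replicate 1, except in Ank3, where it came without replicate 2. An alternative gave no value for a named gene in 51 cases, as where 1 of its regions was no longer kept. With 2 libraries, leads under about 1.42-fold are within the replicate spread over promoter regions, and larger leads were not tested.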
